A study of Homo sapiens with 12 samples.

Results

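MR49F cells, a human prostate cancer line resistant to the androgen receptor blocker enzalutamide, were compared with LNCaP cells, which the labels call sensitive to it. LNCaP is a line grown from a lymph node metastasis of a prostate carcinoma. MR49F descends from it and was selected under enzalutamide. The comparison took 6 of the 12 libraries of the study, 3 per line, and every gene that passed a filter on low counts. Neither line carries an engineered allele per the labels, and whether drug was present before harvest is not given in the sources used here. Each line is a single line, so a difference between them cannot be told apart from a difference between any pair of long-separated cultures. The labels number the samples of a line without saying that they came from separate cultures, so p-values measure only the spread between these samples, which may be technical. The 3 C4-2 libraries, from a castration-resistant LNCaP subline, entered the same fit, so that the p-values rest on their spread too. Otherwise they are quoted only as a further level. C4-2 replicate 1 was far deeper, with 42770072 counts against 7932118 and 7140308 in replicates 2 and 3. Genes of Notch signalling and of the androgen response were left out of the naming, so that the description covers the rest of the transcriptome.

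Total counts in the 6 libraries lay between 6990461 and 9375912. Replicates of a line correlated at 0.990 to 0.993 on log2 CPM (counts scaled to library depth and composition), across genes, which are not independent replicates. The third MR49F library stood further from the other MR49F libraries, with a chi-square of 4.33 to 5.26 per degree of freedom against 2.00 between those. The 10 luminal prostate markers were all tested, and their summed level was 5888 to 6066 CPM in LNCaP and 9034 to 9302 CPM in MR49F. Basal, endothelial, immune and neuroendocrine markers summed to at most 5.47 CPM in any of the 6 libraries, with KRT5, CDH5, CD3E and INSM1 at 0 in all. The neuroendocrine sum was 2.05 to 3.03 CPM in LNCaP and 4.38 to 5.47 CPM in MR49F. It was nearly all SYP, which was higher in MR49F (log2 fold change 0.99). The endothelial sum went the other way, from 3.29 to 4.82 CPM in LNCaP to 0.594 to 0.807 CPM in MR49F. The fibroblast markers summed to 26.2 to 30.1 CPM in LNCaP and 7.61 to 9.26 CPM in MR49F, with COL1A2 at 0 in all 6 libraries. COL1A1 made up most of both sums, at 23.6 to 27.7 and 5.58 to 5.82 CPM, while LUM was higher in MR49F, at 1.38 to 2.26 CPM against 0.214 to 0.551 CPM.

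Cells of a cancer line take their identity from which receptors, adhesion proteins, secreted factors and transcription factors they make. Most such genes are either silent or made at a low level, so a line that has diverged can show whole genes appearing or vanishing. Enzyme and structural genes that every cell uses tend to move less. In bulk RNA, fewer cells making a transcript and less of it per cell cannot be told apart.

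Of 15407 tested genes, 3719 were higher in MR49F (24.1%) and 3516 were lower (22.8%), so that 47.0% passed an adjusted p of 0.05 (edgeR's quasi-likelihood test, Benjamini-Hochberg over all tested genes). All adjusted p-values that follow come from this test, and log2 fold changes are positive where MR49F was higher, with their standard error (SE). A change above 2-fold was found for 871 genes upward (5.65%) and 1160 downward (7.53%), and a change above 4-fold for 368 upward (2.39%) and 494 downward (3.21%). Values of the 3 replicates of one line did not overlap those of the other for 59.8% of tested genes. Large changes were concentrated in weakly expressed genes: at a mean of 1 to 10 CPM, 11.6% were more than 2-fold higher and 14.3% more than 2-fold lower. At 100 to 1000 CPM these shares were 2.35% and 1.88%. Among the 57 genes with a mean of 1000 CPM or more, 28 were higher and 9 lower.

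**Figure D1:**
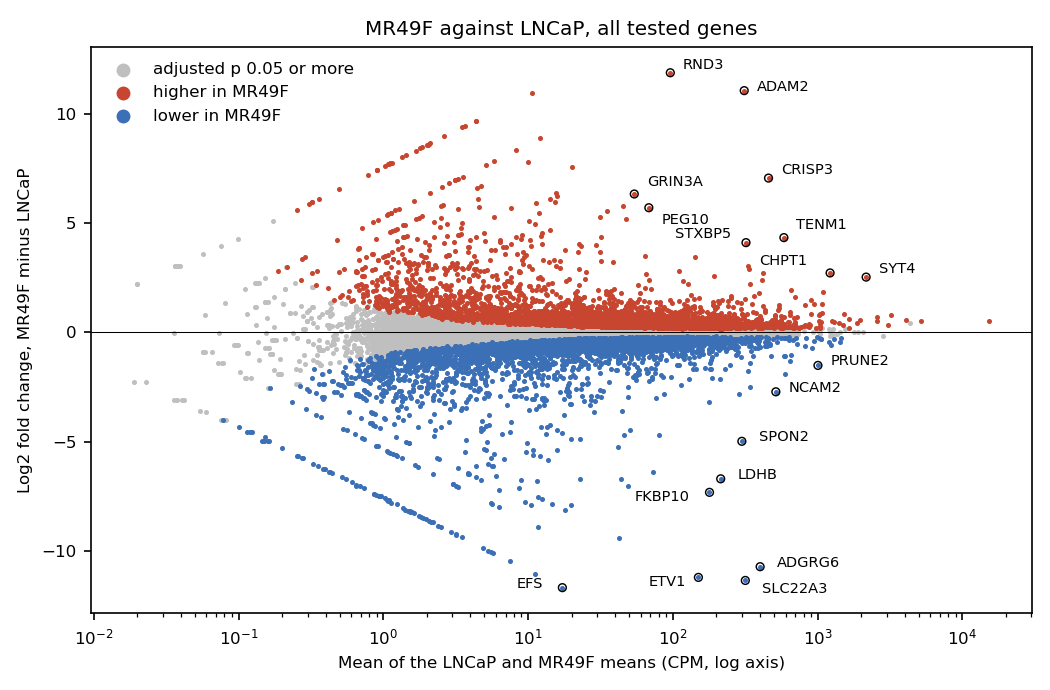
Log2 fold change of MR49F minus LNCaP for each tested gene (y axis) against the mean of both line means in CPM (x axis, log scale), with genes past an adjusted p of 0.05 in colour. The spread narrows to the right, and the circled genes are among the few with large changes at 100 CPM or more (EFS, at lower CPM, is circled as a silenced gene). The diagonal lines at the left edge are genes with no count in one line, whose fitted fold depends on the prior count.

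At 100 CPM or more in the higher line, 23 genes were more than 4-fold higher and 23 more than 4-fold lower without overlap of replicates, of 2956 genes at that level. The genes that rose included ADAM2, GRIN3A, TENM1, NLGN4X and SYT4, which are known best from sperm or neurons. RND3, a small GTPase that opposes RHOA at the actin cytoskeleton, measured 0, 0.114 and 0 CPM in the LNCaP libraries and 183, 191 and 202 CPM in MR49F. This is a single count in LNCaP against 5031, a ratio of 4875 (95% exact binomial interval 875 to 192581, counting error only). The related GTPase genes RND1 and RND2 had 3 or fewer counts over each line. RHOU, an atypical small GTPase, also rose, from 26.6, 31.5 and 23.8 to 173, 195 and 211 CPM (log2 fold change 2.81, SE 0.107, adjusted p = 1.16e-14). RHOA itself, at 321 to 339 CPM in LNCaP and 322 to 345 CPM in MR49F, gave 0.01 (adjusted p = 0.887).

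ADAM2, a sperm surface protein of the ADAM metalloprotease family, went from 0.107, 0.454 and 0.276 CPM to 631, 583 and 651 CPM (log2 fold change 11.09, SE 0.181, adjusted p = 1.46e-20). CRISP3, a secreted cysteine-rich protein, went from 7.26, 5.45 and 7.44 CPM to 905, 817 and 1004 CPM (7.08, SE 0.126, adjusted p = 3.94e-20). ADAM2 was near 0 in every LNCaP library, whereas CRISP3 was low there but counted in each. CRISP2, the sperm-associated neighbour in that gene family, had no count in LNCaP and 71 in MR49F, at least 22.9-fold higher. CRISP1 had 0 and 10 counts.

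GRIN3A, TENM1 and NLGN4X encode proteins found at synapses. GRIN3A, a subunit of NMDA-type glutamate receptors, measured 1.17, 1.70 and 0.965 CPM in LNCaP and 104, 107 and 109 CPM in MR49F (log2 fold change 6.35, SE 0.156, adjusted p = 8.88e-18). The obligatory partner subunit gene GRIN1 had 1 and 2 counts in the respective lines, and GRIN2C rose by 2.10 to a mean of 2.56 CPM. TENM1, a teneurin that binds latrophilin receptors across cell contacts, measured 55.5, 49.1 and 59.3 CPM against 1149, 1083 and 1112 CPM (4.35, SE 0.181, adjusted p = 1.02e-10). The latrophilin gene ADGRL1 was lower, at 191 ± 6.15 CPM in LNCaP and 131 ± 12.4 CPM in MR49F (SD, n = 3 each; -0.55, adjusted p = 1.17e-05). NLGN4X, a neuroligin of postsynaptic membranes, rose from 10.4, 10.9 and 10.2 to 112, 122 and 119 CPM (3.49, SE 0.126, adjusted p = 5.13e-15). The rule that named GRIN3A, TENM1 and NLGN4X required replicates not to overlap, which held for 59.8% of all tested genes in either direction.

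Genes of vesicle fusion also moved. SYT4, a synaptotagmin of secretory vesicles, was already high in LNCaP, at 613, 638 and 656 CPM, and reached 3595, 3637 and 3835 CPM in MR49F (log2 fold change 2.54, SE 0.0769, adjusted p = 2.27e-16). STXBP5, or tomosyn, which binds the fusion machinery and restrains it, rose from 34.8, 34.99 and 34.9 to 578, 596 and 642 CPM (4.12, SE 0.102, adjusted p = 9.69e-18). Its relative STXBP5L went the other way, from a mean of 115 CPM to 27.6 CPM. Of the 17 synaptotagmin genes looked up, 6 were tested: SYT4, SYT3, SYT9, SYT14 and SYT17 were higher, and SYT7 gave 0.13 (adjusted p = 0.212). Of all tested genes, 24.1% were higher. SYT3, SYT9, SYT14 and SYT17 had at most 9 counts in LNCaP, so that once past the count filter they could hardly be lower. Their number is therefore no result about the family. SYT3 and SYT9 reached means of only 2.13 and 2.29 CPM in MR49F. SYT17 went from 9 counts to 582, and SYT14 from 0 to 94, at least 30.4-fold higher.

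The remaining genes that rose had varied roles. TNFRSF19, a member of the tumour necrosis factor receptor family, rose from 22.6, 21.9 and 26.1 to 268, 251 and 257 CPM (log2 fold change 3.46, SE 0.0930, adjusted p = 3.39e-17). The insulin-like growth factor receptor gene IGF1R had a mean of 54.5 CPM in LNCaP and 333 CPM in MR49F, and DUSP4, a phosphatase that switches off MAP kinases, 17.9 and 113 CPM. NUCB2, whose product yields the secreted peptide nesfatin-1, rose from 82.9, 74.5 and 77.2 to 579, 545 and 654 CPM (2.92, SE 0.0871, adjusted p = 1.74e-16). CHPT1, which carries out the last step of phosphatidylcholine synthesis, measured 308, 322 and 327 CPM against 2069, 2019 and 2268 CPM (2.73, SE 0.0768, adjusted p = 6.21e-17). The other enzyme for that step, CEPT1, gave -0.09 (adjusted p = 0.470). Of the genes upstream in the route, CHKA rose by 0.68 and PCYT1A by 0.37, CHKB gave -0.14 (adjusted p = 0.532), and PCYT1B had no count. The imprinted, retrotransposon-derived gene PEG10 went from 2.78, 2.499 and 2.21 to 127, 132 and 142 CPM (5.72, SE 0.131, adjusted p = 2.59e-18).

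**Figure D2:**
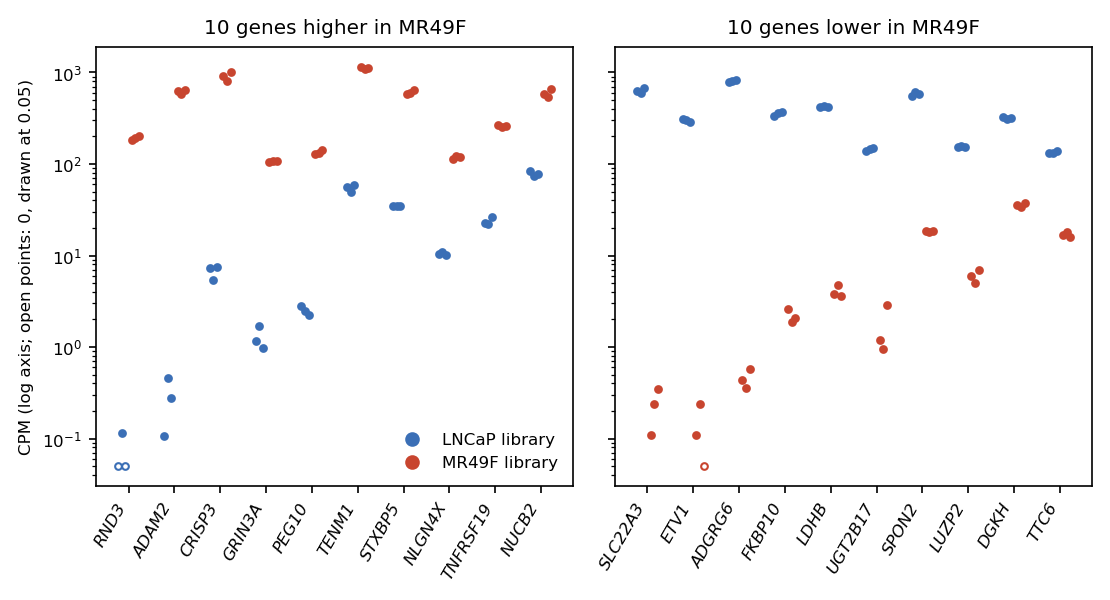
CPM in each library (y axis, log scale) of the 10 named genes per direction with the largest change among genes reaching 100 CPM, LNCaP in blue and MR49F in red, 3 libraries each. The lines are separated in all 20 genes because the naming rule required it. Within a line the libraries lie close together except near 0.

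Among the well expressed genes that fell, SLC22A3, a transporter of organic cations, went from 626, 603 and 671 CPM in LNCaP to 0.109, 0.238 and 0.346 CPM in MR49F (log2 fold change -11.37, SE 0.168, adjusted p = 3.78e-21). ADGRG6, an adhesion G protein-coupled receptor, went from 784, 798 and 819 CPM to 0.438, 0.356 and 0.576 CPM (-10.74, SE 0.194, adjusted p = 4.31e-20). ETV1, an ETS transcription factor that a chromosome rearrangement places under foreign control in LNCaP, went from 313, 300.2 and 287 CPM to 0.109, 0.238 and 0 CPM. That is 7654 counts against 3, a ratio of 2633 (95% exact binomial interval 901 to 12771). These 3 genes were thus among the strongly expressed genes of LNCaP and at or near the detection floor in MR49F. C4-2 also had little ETV1, at a mean of 0.288 CPM.

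LDHB, the lactate dehydrogenase subunit that favours turning lactate to pyruvate, measured 419, 432 and 419 CPM in LNCaP and 3.83, 4.75 and 3.57 CPM in MR49F (log2 fold change -6.71, SE 0.116, adjusted p = 2.97e-20). The other subunit gene, LDHA, was at 755 ± 11.7 CPM and 719 ± 15.2 CPM (SD, n = 3 each; -0.07, adjusted p = 0.442). LDHC had no count in either line. The balance of the 2 subunit transcripts therefore moved through LDHB. FKBP10, a folding enzyme of the endoplasmic reticulum that acts on collagen, fell from 338, 359.6 and 371 to 2.63, 1.90 and 2.07 CPM (-7.33, SE 0.145, adjusted p = 1.58e-19).

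SPON2, a secreted matrix protein, fell from 556, 606 and 579.9 to 18.5, 18.1 and 18.3 CPM (log2 fold change -4.99, SE 0.120, adjusted p = 6.61e-18). LUZP2, a leucine zipper protein, fell from 154, 157 and 154 to 6.02, 4.99 and 6.92 CPM (-4.69, SE 0.123, adjusted p = 2.22e-17). UGT2B17, which conjugates steroids with glucuronic acid, fell from 137, 145 and 149.8 to 1.20, 0.9501 and 2.88 CPM (-6.41, SE 0.182, adjusted p = 7.32e-17), and shares reads with its near-identical relatives. DGKH, a diacylglycerol kinase, and TTC6 completed the 10 named, with -3.17 and -2.99. The remaining 13 genes of this set included FN1, SEMA3C, SEMA6A, COL6A1, DSC2, NCAM2, LCP1 and MYCBP2, at means of 137 to 894 CPM in LNCaP and 21.4 to 135 CPM in MR49F. FN1 and COL6A1 encode matrix proteins, SEMA3C and SEMA6A semaphorins, and DSC2 and NCAM2 adhesion proteins.

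On/off switches were counted over the whole table: genes with a mean of at least 10 CPM in one line and at most 3 counts over the 3 libraries of the other. Genes of the Y chromosome were left out. By this count 7 genes were on in MR49F and 21 were off. The 7 were RND3, ITGA4, ALDH7A1, SFRP1, PLPPR1, GLRB and TRIB2, all protein-coding. The 21 comprised 18 protein-coding genes and 3 long non-coding RNAs. C4-2 libraries, for reference, held 12 of the 21 at 10 CPM or more, 7 between 1 and 10 CPM and 2 under 1 CPM. Of the 7 genes on in MR49F, C4-2 held TRIB2 at a mean of 35.2 CPM, 3 others between 1 and 10 CPM, and ITGA4, ALDH7A1 and GLRB under 1 CPM.

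ALDH7A1, an aldehyde dehydrogenase of lysine breakdown, had no count in LNCaP or C4-2 and measured 19.5, 21.5 and 22.7 CPM in MR49F, at least 179.6-fold higher if LNCaP is given 3 counts over its libraries. ITGA4, the integrin alpha 4 subunit that binds fibronectin and VCAM-1, had 1 count in LNCaP and 639 in MR49F (22.98, 20.4 and 29.6 CPM), a ratio of 619 (95% exact binomial interval 111 to 24493). Its beta partner gene ITGB1 fell from 482 ± 8.01 to 292 ± 27.4 CPM (SD, n = 3 each; log2 fold change -0.72, adjusted p = 1.08e-06), and the alternative partner ITGB7 had 18 and 9 counts. The alpha 4 transcript therefore appeared beside a beta 1 transcript that was present in both lines. SFRP1, a secreted inhibitor of Wnt ligands, had 2 counts in LNCaP and measured 21.1, 21.02 and 17.4 CPM in MR49F, a ratio of 252 (69.5 to 2089.8). TRIB2, a pseudokinase, measured 9.63, 10.3 and 10.6 CPM in MR49F on 1 count in LNCaP (ratio 259, 46.0 to 10256).

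A pair of neuronal membrane genes completed the group. PLPPR1, which shapes the outgrowth of neurites, measured 16.2, 17.8 and 15.4 CPM in MR49F with 1 count in LNCaP (ratio 419, 74.7 to 16571). GLRB, the beta subunit of the glycine receptor, measured 10.9, 12 and 11.99 CPM, also with 1 count in LNCaP (ratio 296, 52.6 to 11711). The alpha subunit genes GLRA1, GLRA2 and GLRA3 had at most 2 counts over either line, so that the beta subunit appeared without them. GPHN, whose product gephyrin anchors the receptor, gave 0.13 (adjusted p = 0.308). With up to 10 counts allowed in LNCaP the set grew to 15, taking in ADAM2, SYT17, KIRREL1, RGS4, PTPN20, GMNC and NNT. NNT, the mitochondrial enzyme that makes NADPH from NADH, rose from 0.107, 0.227 and 0.276 to 37.9, 38.6 and 43.5 CPM.

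Of the 21 genes off in MR49F, 6 had no count there. EFS, an adaptor protein of Src-family kinases, measured 35.5, 35.4 and 32.7 CPM in LNCaP and was at least 303-fold lower in MR49F. DDIT4L, an inhibitor of mTOR signalling, measured 19.1, 24.8 and 23.02 CPM and was at least 194-fold lower. CD302, a C-type lectin receptor, measured 14.4, 15.5 and 14.9 CPM (at least 130.4-fold lower). The other 3 were ZFHX4, LRRC75B and the matrix metalloprotease gene MMP7, at means of 11.4, 10.6 and 11.1 CPM. In C4-2 the mean of EFS was 39.0 CPM and that of MMP7 15.03 CPM, so that among these 3 lines MR49F was the one without them.

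H2AJ, a histone H2A variant, was the most abundant of the silenced genes after ETV1. It measured 82.0, 91.3 and 81.9 CPM in LNCaP and 0.109, 0 and 0.231 CPM in MR49F, a ratio of 745 (95% exact binomial interval 255 to 3616), and had a mean of 119 CPM in C4-2. Other H2A variants moved little: H2AZ1 gave 0.30 (adjusted p = 0.00173), MACROH2A1 -0.24 (adjusted p = 0.00731) and H2AX -0.17 (adjusted p = 0.161). CCL20, a chemokine for cells bearing CCR6, went from 24.6, 22.2 and 23.7 CPM to 0, 0.119 and 0 CPM, a ratio of 616 (110.2 to 24376). WDR72 and the adaptor SORBS2 each fell to 3 counts, from 898 and 742.

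Receptors were lost as well. SMO, the signal transducer of the Hedgehog pathway, had 483 counts in LNCaP and 2 in MR49F, a ratio of 249 (68.6 to 2064). GLI3, a transcription factor at the end of the same pathway, fell from 10.5, 9.32 and 7.31 to 0.438, 0.831 and 0.346 CPM (log2 fold change -4.07, SE 0.319, adjusted p = 1.41e-09). The negative regulators PTCH1 and SUFU gave -0.06 (adjusted p = 0.714) and -0.67 (adjusted p = 1.33e-05). The ligand genes SHH, IHH and DHH and the factors GLI1 and GLI2 had at most 3 counts over a line. LPAR6, a lysophosphatidic acid receptor, had 529 counts in LNCaP and 2 in MR49F, a ratio of 273 (75.2 to 2259.9). LPAR3 fell with it, from 90.5, 89.1 and 87.3 to 2.95, 3.21 and 3.92 CPM (-4.72, SE 0.123, adjusted p = 2.12e-17), and LPAR2 by 0.98 on the log2 scale, so that all 3 receptors of this family that were tested were lower.

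**Figure D3:**
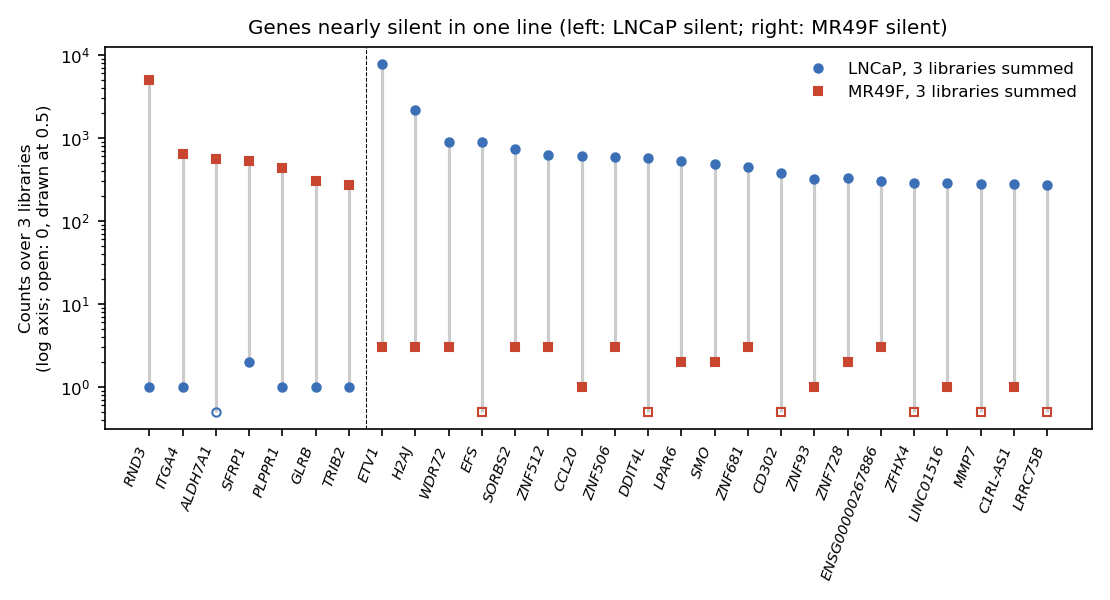
Counts summed over the 3 libraries of each line (y axis, log scale) for the 7 genes on and the 21 genes off in MR49F, with LNCaP as blue circles and MR49F as red squares. Open symbols mark 0 counts, drawn at 0.5. RND3 and ETV1 span the widest ranges, 1 against 5031 and 7654 against 3.

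The promoters of these genes differed in CpG content. The RefSeq table (GRCh38.p14) held the 300 bases around the start (250 before, 50 after) for 28 of the 35 named well expressed and switch genes. A promoter was called CpG-rich where the observed CG count was at least 0.6 of that expected from its bases and at least 50% of bases were G or C. Shown are the 250 bases before the start, 5′ to 3′ on the gene's strand and with each CG in capitals, for 3 genes gained in MR49F and 3 that were silenced. Of the gained genes, RND3 (chr2:150487696-150487945, minus strand) and GLRB (chr4:157075900-157076149, plus strand) had promoters called CpG-rich over the 300 bases. CRISP3 (chr6:49744389-49744638, minus strand) had one with a single CG. RND3 had 13 CG in the 300 bases, 0.650 of the expected count and near the limit, and 8 in the 250 shown. Of the silenced genes, EFS (chr14:23365173-23365422, minus strand) had a CpG-rich promoter. CCL20 (chr2:227813592-227813841, plus strand) and WDR72 (chr15:53762879-53763128, minus strand) had 3 and 1 CG. Which start each line uses was not measured.
RND3: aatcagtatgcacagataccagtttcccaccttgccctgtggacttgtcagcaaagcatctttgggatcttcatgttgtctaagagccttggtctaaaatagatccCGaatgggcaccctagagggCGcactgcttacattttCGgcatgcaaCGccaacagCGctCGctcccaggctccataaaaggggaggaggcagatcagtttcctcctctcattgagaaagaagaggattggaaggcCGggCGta
GLRB: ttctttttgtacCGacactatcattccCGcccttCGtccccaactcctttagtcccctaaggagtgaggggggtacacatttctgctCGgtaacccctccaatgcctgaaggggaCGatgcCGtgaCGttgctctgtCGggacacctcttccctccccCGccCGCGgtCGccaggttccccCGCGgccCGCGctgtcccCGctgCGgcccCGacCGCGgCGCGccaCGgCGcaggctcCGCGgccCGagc
CRISP3: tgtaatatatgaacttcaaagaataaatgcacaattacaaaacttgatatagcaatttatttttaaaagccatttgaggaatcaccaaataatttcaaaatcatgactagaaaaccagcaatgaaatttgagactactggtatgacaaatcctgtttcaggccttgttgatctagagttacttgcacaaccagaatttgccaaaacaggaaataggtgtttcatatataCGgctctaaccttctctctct
EFS: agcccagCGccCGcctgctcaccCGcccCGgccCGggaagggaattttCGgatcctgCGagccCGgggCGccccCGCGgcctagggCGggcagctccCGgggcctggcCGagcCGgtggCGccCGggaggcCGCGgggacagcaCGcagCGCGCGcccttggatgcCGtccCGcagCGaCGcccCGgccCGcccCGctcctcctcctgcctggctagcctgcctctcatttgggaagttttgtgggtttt
CCL20: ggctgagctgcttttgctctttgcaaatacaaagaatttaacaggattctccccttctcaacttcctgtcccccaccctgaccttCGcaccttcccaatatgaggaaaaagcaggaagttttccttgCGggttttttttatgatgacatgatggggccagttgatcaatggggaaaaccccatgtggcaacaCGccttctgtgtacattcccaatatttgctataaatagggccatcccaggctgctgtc
WDR72: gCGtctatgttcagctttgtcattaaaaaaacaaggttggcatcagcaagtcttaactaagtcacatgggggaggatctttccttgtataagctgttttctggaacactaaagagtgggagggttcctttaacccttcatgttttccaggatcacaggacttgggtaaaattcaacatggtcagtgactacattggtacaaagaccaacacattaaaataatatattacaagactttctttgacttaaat

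Over all 10090 tested protein-coding genes with a promoter in the table, 81.3% were CpG-rich. The share was 76.6% of the 244 genes more than 4-fold higher in MR49F and 50.2% of the 287 genes more than 4-fold lower. Of the genes off in MR49F, 6 of 17 were CpG-rich, and of those on, 5 of 6. Among genes that reached 10 CPM in either line, the shares were 85.4% of all 8187, 79.1% of 86 higher and 56.1% of 114 lower. The letters TATAAA, on either strand, occurred in 5.48% of all these promoters, 6.56% of those more than 4-fold higher and 13.6% of those more than 4-fold lower. No test was made of these shares, and DNA methylation was not measured.

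Long non-coding RNAs, many of which have no known role, were less often higher than all genes and about as often lower. Of 1660 tested, 214 were higher in MR49F (12.9%) and 392 lower (23.6%), beside 24.1% and 22.8% of all tested genes. More than 2-fold changes numbered 101 upward (6.08%) and 219 downward (13.2%), and the median log2 fold change was -0.18 beside 0.01 for all genes. Antisense genes, whose reads cannot be told apart from those of the gene on the other strand where counting ignores strand, behaved alike, with 85 of 727 higher and 177 lower. These RNAs are weakly expressed, and 1200 of them had a mean of 1 to 10 CPM. At that level 5.67% were more than 2-fold higher and 12.8% lower, beside 17.3% and 17.6% of protein-coding genes. At 10 to 100 CPM the shares were 3.73% and 7.05%, beside 2.64% and 3.75%. Among the 562 long non-coding RNAs that reached 5 CPM in either line, 30 were more than 2-fold higher and 59 more than 2-fold lower. Pseudogenes, which share reads with their parent genes, gave 171 of 1145 higher and 160 lower, and more than 2-fold changes of 43 upward (3.76%) and 75 downward (6.55%).

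Of the 6 named long non-coding RNAs that rose, NNT-AS1, STXBP5-AS1 and PCOTH lay beside a protein-coding gene that rose too. NNT-AS1, beside NNT on the other strand, had no count in LNCaP and measured 8.43, 8.43 and 9.45 CPM in MR49F, at least 74.3-fold higher, as NNT itself appeared. STXBP5-AS1 rose from 0.427, 0.568 and 0.414 to 28.5, 30.6 and 32.0 CPM (log2 fold change 5.98, SE 0.232, adjusted p = 1.46e-14) next to STXBP5. PCOTH rose from 1.17, 1.25 and 1.38 to 17.6, 14.96 and 13.8 CPM beside MIPEP. Since the strand setting of the counting is not given in the sources used here, part of these values could be reads of the neighbour. C4-2 means were 9.79 CPM for NNT-AS1, 0.837 for STXBP5-AS1 and 3.17 for PCOTH. PCAT19 (3.73, adjusted p = 1.67e-09), ITPRID2-DT (2.65, adjusted p = 8.37e-10) and FIRRE (2.47, adjusted p = 5.72e-09), an X-linked RNA of nuclear organisation, followed. COLCA1, annotated as antisense, was the most abundant of the gains, with a mean of 121 CPM in LNCaP and 561 CPM in MR49F.

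Downward, LINC01516 went from 10.6, 12.04 and 11.2 to 0, 0.119 and 0 CPM, a ratio of 295 (95% exact binomial interval 52.6 to 11699). C1RL-AS1 fell from 277 counts to 1. LINC02718 fell from 12.5, 12.04 and 15.3 to 0.109, 0.475 and 0.115 CPM (log2 fold change -5.79, adjusted p = 8.64e-12), and LINC00648 fell by 5.77 on the log2 scale. GAS6-AS1 was the most abundant of the 6 named losses, at 56.5, 46.7 and 54.6 CPM in LNCaP and 4.49, 4.75 and 3.34 CPM in MR49F (-3.65, SE 0.141, adjusted p = 1.42e-14). Of 45 genes tested from a list of prostate RNAs and other well known long non-coding RNAs, 20 were higher (44.4%) and 6 lower (13.3%). The shares were 24.1% and 22.8% of all tested genes, and 12.9% and 23.6% of long non-coding RNAs. At a mean of 100 CPM and more, 11 of 18 long non-coding RNAs were higher and 5 lower. The list was not compared at matched levels. DRAIC, a prostate RNA, rose from 12.7, 11.9 and 12.8 to 49.4, 43.2 and 52.9 CPM (1.96, adjusted p = 5.62e-11). TUG1 gave -0.44 (adjusted p = 2.38e-04) and NORAD 0.13 (adjusted p = 0.299). SNHG14, at 466 to 497 CPM in LNCaP, gave -0.22 (adjusted p = 0.0671) and passed under 5 of the alternatives, for example without C4-2 replicate 1 (adjusted p = 0.00151).

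Secreted protein families, through which cells act on their surroundings, held larger shares of 2-fold changes than all genes, with more falls than rises. Of 202 tested, 28 were more than 2-fold higher (13.9%) and 51 more than 2-fold lower (25.2%), beside 5.65% and 7.53% of all genes. The 202 include a family of 64 secreted and membrane-bound proteases, so not all are secreted. That family held 13 of the rises and 5 of the falls. These families are weakly expressed, where large changes are common. At a mean of 10 to 100 CPM, 11 of 57 secreted genes were more than 2-fold lower (19.3%), beside 3.33% of other protein-coding genes at that level. At 1 to 10 CPM the shares were 27.4% and 17.0%. At 100 CPM and more the order was the opposite, with 3 of 23 secreted genes more than 2-fold higher and 1 lower (4.35%).

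Cytokine, chemokine and neuropeptide genes had the lowest median of the secreted families: 14 of 28 tested were more than 2-fold lower and 1 more than 2-fold higher, with a median log2 fold change of -1.12. Beside CCL20, the neutrophil attractant CXCL8 fell from 11.3, 11.02 and 11.7 to 0, 0.119 and 0.576 CPM (-5.57, SE 0.353, adjusted p = 4.38e-11). CXCL16, a chemokine that is also a membrane protein, rose from 37.1, 39.0 and 43.6 to 68.2, 73.6 and 60.2 CPM (0.76, adjusted p = 1.91e-06). The neuropeptide gene GAL gave 0.48 (adjusted p = 0.00469). The immune markers of these libraries were at or near 0, as given above, so that these transcripts were measured where immune cells were not detected.

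Matrix genes split. Of 54 tested, 16 were more than 2-fold lower (29.6%) and 8 higher (14.8%), beside 7.53% and 5.65% of all tested genes. THBS1, the adhesive glycoprotein thrombospondin 1, fell from 45.6, 45.9 and 44.2 to 0.328, 0.356 and 0.576 CPM (log2 fold change -6.72, SE 0.187, adjusted p = 5.25e-17). SPOCK1, a matrix proteoglycan, rose from 1.495, 2.05 and 1.24 to 87.1, 84.4 and 94.98 CPM (5.78, SE 0.157, adjusted p = 3.67e-17). The family therefore held a near loss and a large gain. Of 20 protease inhibitor genes, 5 were more than 2-fold lower, and the 6 that rose did so by less than 2-fold (SERPINB8 by 0.99 and RECK by 0.80 on the log2 scale). PI3, the elastase inhibitor elafin, had 163 counts in LNCaP and 0 in MR49F, at least 56.1-fold lower.

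Secreted and membrane-bound proteases went the other way, with 13 of 64 more than 2-fold higher (20.3%) and 5 lower (7.81%). Of all tested genes, 5.65% and 7.53% were. ADAMTS3, which trims procollagen, rose from 0.748, 1.02 and 0.551 to 12.3, 9.74 and 11.3 CPM (log2 fold change 3.80, adjusted p = 9.48e-11). Among the growth factor families, BMP6 rose by 2.57 (adjusted p = 1.73e-09) and PDGFA by 1.70 (adjusted p = 3.16e-06). The heparin-binding factor gene MDK fell from 23.1, 24.8 and 21.2 to 2.95, 2.85 and 2.88 CPM (-2.99, SE 0.229, adjusted p = 2.05e-09), and FSTL1, a follistatin-like glycoprotein, from 30.8, 32.8 and 29.6 to 0.766, 0.475 and 0.922 CPM (-5.40, SE 0.188, adjusted p = 2.67e-15). Of 24 genes for FGF, EGF, VEGF, PDGF and neurotrophin ligands, 4 were more than 2-fold higher (16.7%) and 7 lower (29.2%). Of 12 genes of the TGF-beta family, 2 were more than 2-fold higher (16.7%) and 4 lower (33.3%).

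**Figure D4:**
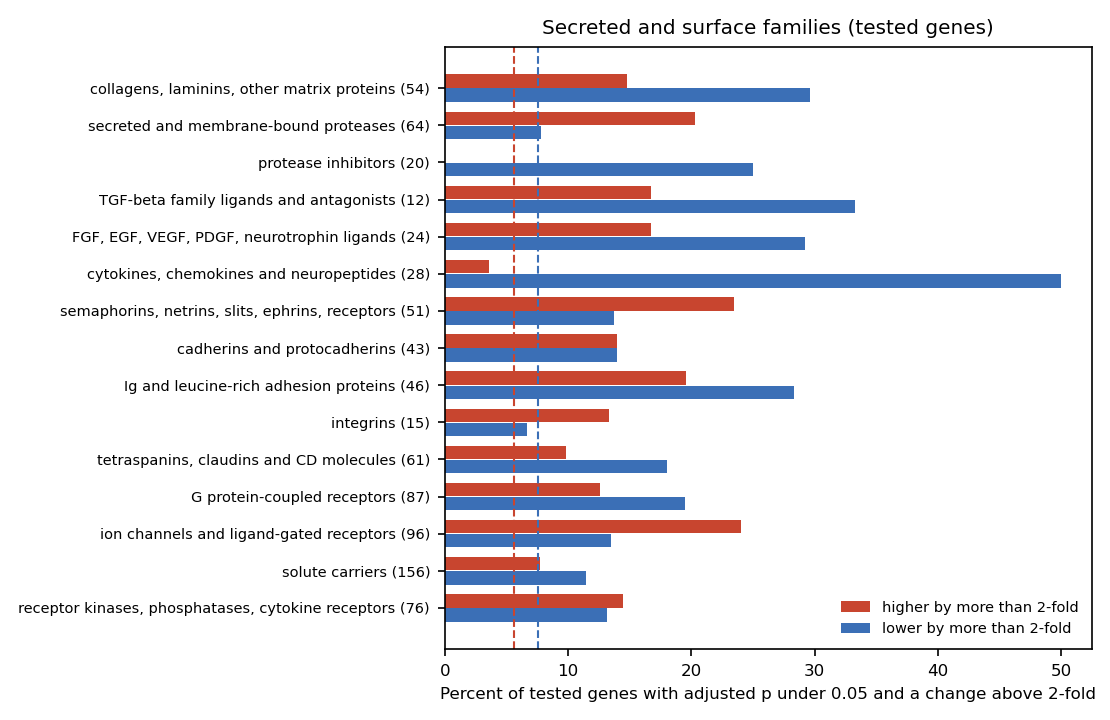
Percent of tested genes of each secreted and surface family (x axis) that were more than 2-fold higher (red) or lower (blue) in MR49F at an adjusted p under 0.05, with the number tested in brackets. Dashed lines mark the shares of all tested genes, 5.65% and 7.53%. The longest blue bar is that of cytokines (14 of 28) and the longest red one that of ion channels (23 of 96).

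Surface families moved in both directions. Of 631 tested, 92 were more than 2-fold higher (14.6%) and 96 more than 2-fold lower (15.2%), beside 5.65% and 7.53% of all tested genes. At a mean of 10 to 100 CPM the shares were 9.16% and 11.1%, beside 2.37% and 3.33% of other protein-coding genes. At 1 to 10 CPM, 53 of 226 surface genes were more than 2-fold higher and 43 lower, beside 16.3% and 17.0% of other protein-coding genes, and at 100 CPM and more the shares were 8.33% and 9.52%, beside 2.15% and 1.66%. Ion channels and ligand-gated receptors leaned upward, with 23 of 96 more than 2-fold higher, 13 lower and a median of 0.26. GABRA5, a GABA receptor subunit, had 2 counts in LNCaP and 229 in MR49F, a ratio of 111 (95% exact binomial interval 30.4 to 922). AQP3, a channel for water and glycerol, fell from 22, 20.3 and 21.2 to 0.438, 0.475 and 0.576 CPM (log2 fold change -5.39, SE 0.205, adjusted p = 1.08e-14). CACNA1H, a T-type calcium channel, fell from 13.8, 14.9 and 14.6 to 0.438, 0.831 and 1.27 CPM (-4.09, adjusted p = 1.46e-11).

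Cell adhesion genes moved in both directions. PCDH7, a protocadherin, had no count in LNCaP and measured 7.99, 7.01 and 6.92 CPM in MR49F, at least 62.0-fold higher. CDH1, the E-cadherin of epithelial junctions, fell from 755, 799 and 819.8 to 377, 376 and 362 CPM (log2 fold change -1.09, SE 0.0718, adjusted p = 8.36e-11). The desmosomal cadherin DSC2 fell from 469.8, 500.1 and 541 to 68.5, 65.6 and 76.5 CPM (-2.84, SE 0.0982, adjusted p = 2.31e-15). Both junction genes remained expressed in MR49F, unlike the switches above. C4-2 means were 1124 CPM for CDH1 and 92.4 CPM for DSC2. Of 43 cadherins, 6 were more than 2-fold higher and 6 lower. Of 46 immunoglobulin and leucine-rich adhesion genes, 9 were more than 2-fold higher (19.6%) and 13 more than 2-fold lower (28.3%). KIRREL1, a nephrin relative, rose from 0.107, 0.682 and 0.414 to 29.5, 28.6 and 25.4 CPM (6.11, adjusted p = 5.05e-14), while the synaptic gene SLITRK3 fell from 30.9, 28.4 and 31.0 to 1.09, 1.54 and 1.38 CPM (-4.48, adjusted p = 2.18e-14). Of 15 integrins, 2 were more than 2-fold higher (13.3%) and 1 lower (6.67%), the latter near the share of all genes. ITGAV gave -0.03 (adjusted p = 0.862).

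Guidance genes, whose products steer growing axons and migrating cells, included 12 of 51 more than 2-fold higher and 7 lower. These are 23.5% and 13.7%, beside 5.65% and 7.53% of all tested genes. SEMA6D rose from 3.10, 2.73 and 2.07 to 23.6, 28.3 and 24.1 CPM (log2 fold change 3.24, SE 0.179, adjusted p = 4.38e-12). The semaphorin receptor PLXND1 rose by 4.41 (adjusted p = 5.80e-09). SEMA3C fell from 154, 143 and 157 to 17.3, 23.3 and 23.6 CPM (-2.83, SE 0.127, adjusted p = 1.76e-13), and EFNB2, the ligand ephrin-B2, from 57.2, 65.8 and 58.2 to 13.02, 12.7 and 12.2 CPM (-2.25, SE 0.109, adjusted p = 5.38e-13). The family thus held both rises and falls at well measured levels.

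Receptors and transporters followed the same mixture. Of 87 G protein-coupled receptors, ADGRG6 and LPAR6 among them, 11 were more than 2-fold higher (12.6%) and 17 lower (19.5%). Of all tested genes, 5.65% and 7.53% were. LGR4, a receptor for R-spondins, rose from 42.7, 39.8 and 40.8 to 89.2, 88.0 and 95.8 CPM (log2 fold change 1.15, SE 0.0995, adjusted p = 6.76e-09). Of 76 receptor kinases, phosphatases and cytokine receptors, 11 were more than 2-fold higher and 10 lower, with PTPRU, a receptor phosphatase, down by 2.72 on the log2 scale (adjusted p = 8.68e-13) and OSMR, the oncostatin M receptor, at -1.60 (adjusted p = 1.89e-08). Of 156 solute carriers, 12 were more than 2-fold higher (7.69%) and 18 lower (11.5%), which is nearer to the shares of all genes. CD24, a mucin-like glycoprotein, rose from 1.39, 1.25 and 0.551 to 22.9, 21.9 and 26.3 CPM (4.42, adjusted p = 1.10e-12). STEAP2, a metalloreductase of prostate cells at over 1300 CPM in each library, gave -0.07 (adjusted p = 0.557).

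Transcription factor families were read in the same way. Of 19 HOX cluster genes, 8 were more than 2-fold lower (42.1%) and 2 higher (10.5%), beside 7.53% and 5.65% of all tested genes. Their median was -1.36, or -0.77 with the 4 genes without counts in one line set at their floor. HOXA10 fell from 17.3, 19.5 and 19.7 to 6.24, 7.24 and 6.11 CPM (-1.53, SE 0.129, adjusted p = 4.56e-09). Homeobox genes outside the HOX clusters gave 11 of 50 more than 2-fold higher and 8 lower. SOX, FOX, GATA, KLF and RUNX factors gave 9 of 79 in each direction. Basic helix-loop-helix factors gave 6 of 29 more than 2-fold higher and 3 lower, with a median of 0.28. RUNX1 rose from 0.534, 1.14 and 0.689 to 15.2, 20.5 and 16.7 CPM (4.45, SE 0.270, adjusted p = 2.17e-11) and IRX2, a homeobox factor, from 2.03, 3.98 and 2.34 to 46.9, 41.3 and 41.6 CPM (3.95, SE 0.176, adjusted p = 1.48e-13). SOX9, a factor of progenitor and duct cells, had 199 counts in LNCaP and 2 in MR49F, a ratio of 103 (95% exact binomial interval 28.1 to 854). ID3, an inhibitor of helix-loop-helix factors, fell from 53.8, 56.1 and 49.1 to 7.66, 6.41 and 7.38 CPM (-2.89, adjusted p = 1.35e-12). FOXA1, the pioneer factor of luminal cells, was at 395 to 409 CPM in LNCaP and 412 to 458 CPM in MR49F (0.10, adjusted p = 0.248).

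Imprinted genes, of which only one parental copy is usually active, included large changes in both directions. Beside PEG10, its chromosome 7 neighbour SGCE rose from 0.214, 0.227 and 0 to 9.52, 8.91 and 8.76 CPM (log2 fold change 5.76, SE 0.386, adjusted p = 1.07e-10). MEST, on the same chromosome, fell from 40.8, 39.1 and 38.7 to 0.219, 0.119 and 0.115 CPM (-7.92, SE 0.214, adjusted p = 3.62e-17). PEG3 fell from 189, 192 and 195 to 32.4, 35.4 and 40.7 CPM (-2.41, SE 0.106, adjusted p = 1.16e-13). C4-2 means were 35.9 CPM for PEG3, 115 for MEST, 3.50 for PEG10 and 0.116 for SGCE. Of 22 imprinted genes tested, 8 were higher (36.4%) and 4 lower (18.2%), beside 24.1% and 22.8% of all tested genes. Cancer-testis antigen genes gave 6 higher and 9 lower of 19, with MAGEA1 up from 3.63, 3.64 and 3.45 to 21.7, 19.2 and 19.02 CPM (2.48, adjusted p = 5.68e-12); the MAGEA genes share reads with each other.

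Position on the chromosomes gave the broadest pattern. On the X chromosome 355 of 554 tested genes were higher in MR49F (64.1%) and 42 lower (7.58%), with a median log2 fold change of 0.54 beside 0.01 for all genes. On chromosomes 16, 19 and 22 the lower genes made up 44.8%, 47.5% and 52.2%, the higher ones 6.88%, 6.21% and 3.48%, and the medians were -0.30, -0.31 and -0.35. On every other chromosome the median lay between -0.07 and 0.12. Each LNCaP library had a median X deviation of -0.24 to -0.28 from the 6-library mean, and each MR49F library one of 0.25 to 0.27, without overlap. On chromosomes 16, 19 and 22 the third MR49F library lay furthest from the LNCaP libraries, and the other 2 were also apart from them.

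The shift was spread along these chromosomes. All 8 stretches of 20 Mb on X with at least 20 tested genes had a median above 0, from 0.13 to 0.75, and all 5, 3 and 3 stretches on chromosomes 16, 19 and 22 one below 0. Chromosome 13 was mixed, with medians from -0.53 to 0.57, and the first and next 20 Mb of chromosome 2 stood at 0.51 and 0.48. Chromosomes 16, 19 and 22 are rich in G and C (median transcript content 54.3%, 57.0% and 55.3%, all genes 47.9%). Within the lowest, middle and highest of 3 equal groups of genes by GC content, the medians were -0.35, -0.31 and -0.27 on chromosome 16, -0.58, -0.41 and -0.23 on chromosome 19, -0.26, -0.35 and -0.37 on chromosome 22 and 0.48, 0.52 and 0.67 on X. Chromosome 17, at 52.8% GC, had a median of 0.05. The number of chromosome copies was not measured, and its part in these shifts was not tested.

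**Figure D5:**
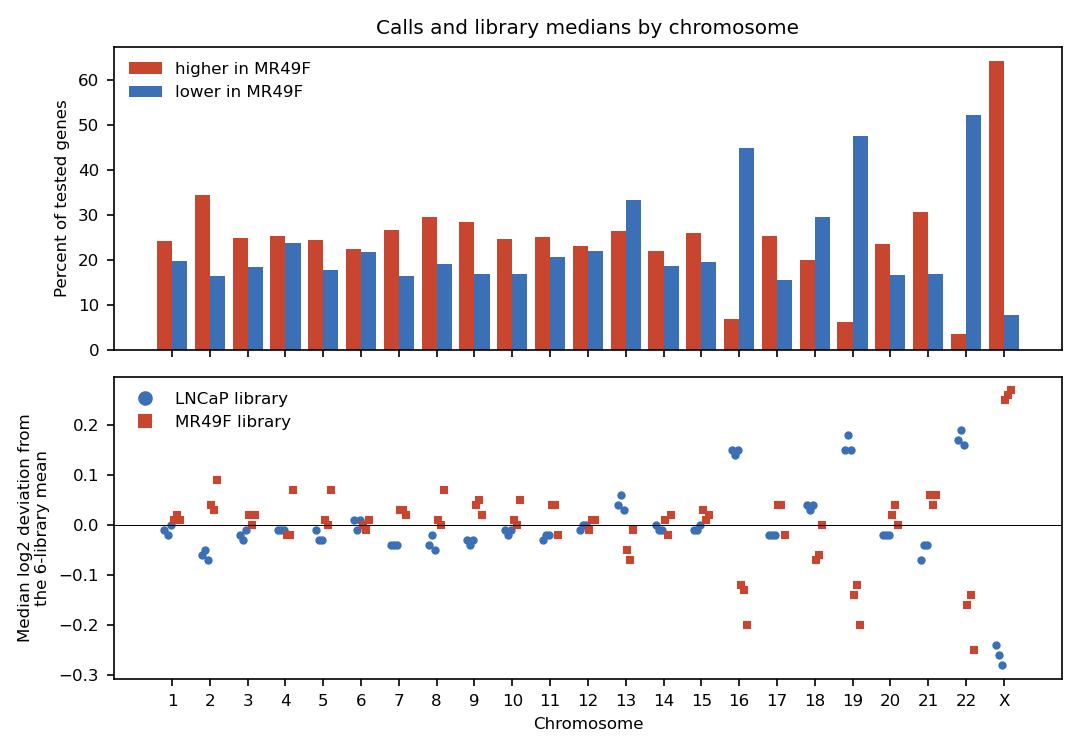
Top: percent of tested genes on each chromosome higher (red) or lower (blue) in MR49F. Bottom: for each library, the median over the chromosome's genes of the log2 deviation from the 6-library mean, LNCaP as blue circles and MR49F as red squares. X stands at 64.1% higher, and chromosomes 16, 19 and 22 at 44.8% to 52.2% lower, with the libraries of the lines apart.

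Neighbouring genes changed together in places. Runs of at least 4 consecutive tested genes, all changed more than 2-fold the same way, numbered 5 upward with 21 genes and 11 downward with 62 genes. One upward run held STXBP5-AS1, STXBP5, the pseudogene YAP1P1 and SAMD5 on chromosome 6 (146841901 to 147737547, GRCh38), where YAP1P1 had no count in LNCaP and 111 in MR49F and SAMD5 rose by 4.29 (adjusted p = 4.41e-12). In the T cell receptor gamma locus on chromosome 7 (38239580 to 38378804), TRGC1 rose from 12.9, 12.5 and 12.1 to 29.8, 28.6 and 31.5 CPM (log2 fold change 1.26, SE 0.114, adjusted p = 1.42e-08). TRG-AS1, also of this run, gave 1.43 (adjusted p = 0.0151), with an adjusted p of 0.0890 without LNCaP replicate 2 and 0.0599 without MR49F replicate 1. Prostate cells make a transcript from that locus without T cells, and CD3E was at 0 in all 6 libraries.

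Zinc finger genes accounted for 4 of the downward runs, all on chromosome 19. They encode KRAB-type repressors, many of which bind transposable elements. The longest, of 13 genes (22179091 to 23833314), reached from ZNF676 past ZNF728, ZNF730, ZNF724, ZNF91 and ZNF681, with a median of -5.35. In it ZNF91 fell from 95.6, 90.4 and 83.8 to 28.9, 26.8 and 26.3 CPM (-1.72, SE 0.126, adjusted p = 4.51e-10), while ZNF728 went from 324 counts to 2. A run of 7 genes beside it (21444241 to 22091480) held ZNF43, which fell from 84.2, 79.9 and 81.5 to 2.41, 2.49 and 1.61 CPM (-5.23, SE 0.142, adjusted p = 3.67e-17). ZNF208 and ZNF257 of the same run had no count in MR49F, at least 36.5-fold and 32.7-fold lower. Of 236 zinc finger genes tested on chromosome 19, 4 were higher and 164 lower (69.5%), beside 272 of 659 other protein-coding genes of that chromosome (41.3%). On other chromosomes 59 of 288 were higher and 59 lower. Many of these genes are recent duplicates, so that reads could be split among them.

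Another downward run covered the UGT2B cluster on chromosome 4 (68447449 to 70204576), from TMPRSS11E through UGT2B17, UGT2B15, UGT2B10, UGT2B11 and UGT2B28 to ODAM, with a median of -3.46. UGT2B15 fell from 99.97, 94.1 and 99.1 to 0.547, 1.07 and 0.576 CPM (-7.05, SE 0.166, adjusted p = 4.26e-18). The flanking genes that are not glucuronosyltransferases fell too, TMPRSS11E by 3.46 and ODAM by 2.21 on the log2 scale. C4-2 means were 0.0881 to 8.63 CPM for the UGT2B genes of this run, 2.35 for TMPRSS11E and 6.58 for ODAM. A run of 4 HOXA genes on chromosome 7 (27141052 to 27180261), HOXA5, HOXA6, HOXA9 and HOXA10, had a median of -3.28. A run on chromosome 6 (159969099 to 160452581) joined SLC22A3 to IGF2R, the receptor that clears insulin-like growth factor 2. On chromosome 4 (101411286 to 102760994), BANK1, SLC39A8, NFKB1, a subunit gene of NF-kB, and MANBA fell together, with a median of -1.70.

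The largest gains and losses in CPM were also listed. The 5 genes that gained most CPM, SYT4, CHPT1 and the nuclear copies of mitochondrial genes MTCO1P12, MTCO3P12 and MTND2P28, took 2.08 ± 0.0822% of counts in LNCaP and 3.33 ± 0.370% in MR49F (SD, n = 3 each). The mitochondrially encoded genes themselves were listed at 0, so that reads of the copies cannot be told apart from reads of the mitochondrial genome. MTCO3P12 (0.52, adjusted p = 0.0419) missed the threshold under 10 of the other settings besides the test against a 1.5-fold change, for example DESeq2 (adjusted p = 0.0619). The 5 genes that lost most, PRUNE2, ADGRG6, NCAM2, MYO6 and SLC22A3, went from 0.493 ± 0.00949% to 0.0886 ± 0.00250%. PRUNE2, whose opposite strand holds the prostate RNA gene PCA3, fell from 1514, 1496 and 1454 to 514, 538 and 514 CPM (log2 fold change -1.51, SE 0.122, adjusted p = 6.55e-09). MYO6, a myosin that moves toward the minus end of actin filaments, fell from 968, 931 and 942 to 248, 226 and 275 CPM (-1.92, SE 0.0946, adjusted p = 7.16e-13), and NCAM2, a neural adhesion molecule, from 911, 865 and 905 to 125, 133 and 148 CPM (-2.72, SE 0.0852, adjusted p = 3.97e-16). Ranking by CPM lost can only pick genes that LNCaP expressed well, so their high levels there follow from the rule.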

How the data were processed

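RNA of LNCaP, MR49F and C4-2 cells was read with a stranded TruSeq kit as paired ends, per the labels. The values used are counts per Ensembl gene as the authors deposited them, whole numbers that were not normalized. Per the submitters' processing notes, the build was GRCh38.p12, and HTSeq 0.6.1, TopHat2, FastQC 0.11.3 and edgeR 3.12.1 were among the tools. Not given in the sources used here are the strand setting and the annotation release. Columns were matched to samples by title, 9 in all. A further 3 columns matched no title and were not used, so the C4-2R libraries were not analysed here.

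The table held 57992 entries, of which 57388 matched GENCODE release 29 and 56948 had a symbol. The main test was edgeR 4.0.16 in R 4.3.3 (quasi-likelihood, robust, TMM scaling, filterByExpr by line) on 9 libraries, 1 mean per line, with 6 residual degrees of freedom and a common biological coefficient of variation of 0.0817. CPM use TMM-scaled library sizes. Benjamini-Hochberg adjusted p under 0.05 over 15407 tested genes was called. The script was tested on simulated data.

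The families, gene lists and members were chosen with earlier results of these data known, and the related genes quoted beside a named gene, and the split of long non-coding RNAs by level, were chosen after their values were seen. Named genes were the 10 per direction with the largest change at 100 CPM or more, the 10 per direction with the highest CPM among switches, the 6 long non-coding RNAs per direction at 5 CPM or more, 2 per direction and family plus an abundant gene that did not pass, the 5 with the largest gain or loss of CPM, and the members of the 3 longest runs per direction. One of these runs and some marker genes are not reported here. Genes at 0 in a line have a lower bound against 3 counts over the group; genes with 1 to 3 counts have a ratio with an exact 95% binomial interval, covering counting error only since reads carry no molecular identifiers. With 3 libraries per line the smallest p of an exact permutation test is 0.1, and none was used. Alternatives were DESeq2 1.42.0, voom of limma 3.58.1, RLE scaling, other count filters, the 6 libraries alone, a test against a 1.5-fold change, a replicate block, other thresholds and each library left out. Removal of 441 nuclear copies of mitochondrial genes was chosen after seeing the data. Replicate numbers did not pair the libraries.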

Additional observations from a re-analysis of the deposited data

How the results depend on the processing

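No named gene changed direction in a call under any alternative. Of 3398 values for the 189 named genes, 3345 kept direction and side of the threshold, 42 (15 genes) lost the call and 11 gained it. Counts of calls in each direction stayed within 1.5 times except as follows. Against a 1.5-fold change, a stricter null, 988 genes were higher and 1137 lower, of them 77 and 162 long non-coding RNAs. Large falls numbered 42 at 50 CPM or more, and large rises and falls 14 and 13 at 200 CPM or more. Switches on and off in MR49F numbered 1 and 6 with 0 counts allowed, 15 and 32 with 10, 23 and 37 at 5 CPM or more, and 3 and 10 at 20 CPM or more. Runs upward and downward numbered 26 and 28 with 3 genes, 1 and 5 with 5 genes, and 38 and 37 at 1.5-fold.

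With single libraries left out, genes higher numbered 2953 to 4399 and lower 3083 to 4076, more than 2-fold higher 873 to 919 and lower 1179 to 1255, long non-coding RNAs higher 179 to 247 and lower 349 to 466. The most calls, 4399 higher and 4076 lower, came without C4-2 replicate 1, the deepest library. Large rises numbered 22 to 24, large falls 23 to 26, switches on 6 to 8 and off 20 to 22. Chromosome medians ranged over all alternatives from 0.40 to 0.54 on X and from -0.39 to -0.25 on chromosomes 16, 19 and 22. The median of all genes stayed within 0.01 of 0. Same-numbered MR49F and LNCaP libraries did not deviate together (correlations -0.016, 0.023 and -0.021), so the numbers give no pairing. With the replicate block 3646 genes were higher and 3469 lower. Genes under about 1 CPM rest on fewer than 10 counts per library.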
